A study of Mus musculus with 6 samples.

Results

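The genes described here are 10 components and outputs of the circadian clock, Clock, Npas2, Per1, Per2, Per3, Cry1, Cry2, Nr1d1, Nr1d2 and Dbp, chosen by symbol from a count table of 41388 gene identifiers. All 10 were found, and all 10 were among the 15939 genes with enough reads to test. They were measured by RNA sequencing of whole liver from BALB/c mice in which carbon tetrachloride (CCl4), a liver toxin, had been given for 5 weeks to induce fibrosis. The AL/NP group (n = 3 libraries) received nanoparticles loaded with the bisphosphonate alendronate, at 4 mg/kg and 2 injections per week, during the final 2 weeks; the fibrotic control group (n = 3 libraries) is titled untreated and also carried CCl4 fibrosis. No healthy liver and no empty particle is among the samples, so drug, carrier and injection cannot be told apart. The labels do not say that each replicate is a separate animal, so the p-values measure the spread between these libraries. They give no time of day at harvest, light schedule or feeding state.

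The clock is a feedback loop that runs in nearly every cell and sets the daily timing of much of liver metabolism. CLOCK or its relative NPAS2 pairs with BMAL1 (gene Arntl) on E-box DNA and switches on the Per, Cry, Nr1d and Dbp genes. PER and CRY proteins then block that pair, while the REV-ERB proteins made by Nr1d1 and Nr1d2 repress Arntl, Npas2 and Cry1 through a second element, and DBP acts on D-boxes of genes such as Per3. In mouse liver Nr1d1 peaks during the day, followed by Dbp, Nr1d2 and Per3, then by Per1 and Per2 around dusk. Cry1 peaks during the night, with Npas2 and Arntl highest near its end. A comparison of these genes therefore asks whether 2 groups of livers were taken at the same phase, and a shift in phase and an effect of treatment cannot be told apart in this design.

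Per3, Cry1 and Nr1d1 are shown as sequence as one example each of the Period, Cryptochrome and REV-ERB genes. Their promoters, from RefSeq on GRCm38.p6 (250 bases before to 50 after the annotated start), are given 5′ to 3′ on the strand of the gene. Capitals mark the D-box TTATGTAA in Per3, the E-box CACGTG in Cry1, and the E-box variant CACGTT, read on the other strand as AACGTG, in Cry1 and Nr1d1.
Per3, minus strand, chr4:151044616-151044915: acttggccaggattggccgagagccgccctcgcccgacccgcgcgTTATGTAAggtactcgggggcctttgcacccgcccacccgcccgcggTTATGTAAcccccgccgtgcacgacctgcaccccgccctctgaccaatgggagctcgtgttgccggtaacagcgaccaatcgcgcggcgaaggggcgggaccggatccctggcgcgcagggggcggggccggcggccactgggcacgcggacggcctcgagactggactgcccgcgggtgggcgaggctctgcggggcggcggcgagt
Cry1, minus strand, chr10:85185005-85185304: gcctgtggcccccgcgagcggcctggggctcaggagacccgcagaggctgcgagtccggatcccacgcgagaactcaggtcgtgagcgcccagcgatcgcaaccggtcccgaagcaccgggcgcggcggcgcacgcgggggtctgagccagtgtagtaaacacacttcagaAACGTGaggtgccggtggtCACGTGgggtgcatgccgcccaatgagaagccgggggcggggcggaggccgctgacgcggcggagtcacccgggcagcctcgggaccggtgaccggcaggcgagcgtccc
Nr1d1, minus strand, chr11:98775328-98775627: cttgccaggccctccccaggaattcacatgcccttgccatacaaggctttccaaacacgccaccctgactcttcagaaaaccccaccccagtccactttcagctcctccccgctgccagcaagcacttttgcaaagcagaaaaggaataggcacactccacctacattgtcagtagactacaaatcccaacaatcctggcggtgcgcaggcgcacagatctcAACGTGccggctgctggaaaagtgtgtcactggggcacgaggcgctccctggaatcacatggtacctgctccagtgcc

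Letters were searched on both strands, and no 2 matches overlapped. Per3 held 2 copies of TTATGTAA, with first bases at -205 and -158 relative to the start. Of 32851 promoter windows of the same length in the reference table, 0.938% held TTATGTAA, 0.119% held the other D-box TTACGTAA, and 0.0244% held at least 2 D-boxes. The E-box CACGTG was found in Cry1, at -60, and in 1 of 2 windows of Per1, and it occurs in 7.15% of all windows. CACGTT was found in Cry1, Cry2 and Nr1d1 and occurs in 4.68%. The CRE TGACGTCA occurs in 1.79% of windows, and the REV-ERB element cores TAGGTCA and TGGGTCA in 2.61% and 3.98%. Promoters were matched for 9 members; Per2 had no entry. The windows of Clock, Npas2, Nr1d2 and Dbp held none of these letters, and no window of a member held the CRE or either core, which says only that the letters are not in these windows. A match is a description of the letters and not a binding site.

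Libraries held between 30554483 and 39838428 counts. Levels are given as CPM, read counts scaled to a common library size with TMM factors, and 3 counts corresponded to between 0.0825 and 0.104 CPM, which covers counting error only. Hepatocyte markers such as Alb and Ttr summed to between 48562 and 57042 CPM in AL/NP and between 58256 and 76189 CPM in controls. That is in keeping with the label of liver. Alb alone averaged 40225.5 CPM in AL/NP and 47309.7 CPM in controls. Of the 5 hepatocyte markers 1 had a positive fold change, Serpina1c (0.83 on the log2 scale, without overlap). Among these 5, edgeR called 0, and DESeq2 called Ttr lower and Serpina1c higher in AL/NP. Of the other marker lists, the 6 macrophage markers summed to between 269.8 and 311.9 CPM in AL/NP and between 149.4 and 206.7 CPM in controls, with 5 of 6 at a positive fold change; edgeR called 0 of them and DESeq2 called 1, Mpeg1. The 4 neutrophil markers summed to between 17.3 and 42.0 CPM in AL/NP and between 9.47 and 14.6 CPM in controls, with 0 called by edgeR and 3 by DESeq2. Over all genes edgeR called 0.0816% and DESeq2 called 5.07% of those it adjusted. No marker list held a gene at 0 in every library. Clock genes are active in immune cells as well as hepatocytes, and the part of the cell mix in the values below was not tested; in bulk RNA, fewer cells of a type and less RNA per cell cannot be told apart. Stellate cell, endothelial and B cell sums overlapped between the groups.

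Extremes among the members were unevenly shared between libraries. In this set AL/NP replicate 1 was the lowest of the 6 libraries in 5 members (Per2, Per3, Cry2, Nr1d2 and Dbp) and the highest in 2 (Npas2 and Cry1), so it held an extreme in 7 of 10 members. Over all tested genes it was lowest in 27.5% and highest in 24.4%, together 51.9%, so extreme values in this library were common throughout the table and are not particular to clock genes. This library also had the highest sums of T and NK cell markers, 19.1 CPM where AL/NP replicates 2 and 3 had 4.92 and 3.19 CPM and controls had 2.04 to 2.92 CPM, and of cholangiocyte markers, 41.9 CPM against 15.3 to 19.3 CPM in the other 5. Cd3e alone made up 16.6 CPM of the T and NK cell sum in AL/NP replicate 1, while Cd3g, Nkg7 and Trbc2 were at 0.695, 0.417 and 1.39 CPM there and 0.578, 0.413 and 1.27 CPM in AL/NP replicate 2. All 4 cholangiocyte markers were highest in AL/NP replicate 1. Their part in its clock values was not tested. Fold changes are therefore given with and without it. Control replicate 3, whose mitochondrially encoded genes took 26.7% of counts against 11.96% to 19.8% elsewhere, was the highest library in Per3, Cry2 and Nr1d2 and the lowest in Clock; over all tested genes it was highest in 28.2% and lowest in 29.1%. Among the other 4 libraries, the share of all genes in which a library was lowest was 7.16% for AL/NP replicate 2, 14% for AL/NP replicate 3, 11.9% for control replicate 1 and 10.4% for control replicate 2. The share in which it was highest was 6.63%, 17.3%, 12.5% and 11% in the same order.

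No clock gene passed the test between the groups. The quasi-likelihood test of edgeR, with Benjamini-Hochberg adjustment over all 15939 genes, called 0 of the 10 members at an adjusted p of 0.05, where it called 13 of all genes (0.0816%), 0.0627% higher and 0.0188% lower in AL/NP. At an unadjusted p under 0.05 there were 3 members, Per3 and Per2 with negative fold changes and Cry1 with a positive one, against 19.6% of all genes. DESeq2 called 1 member, Per3, where it called 5.07% of the genes it adjusted. The members split evenly, 5 with a positive and 5 with a negative fold change, and their median log2 fold change was -0.08, beside a median of 0.00 (-2.49e-04) over all genes tested. The groups did not overlap in 2 members, Per2 and Per3, while they did not overlap in 29.5% of all genes, a larger share. Without AL/NP replicate 1 edgeR again called 0 members (0.0184% of all genes) and gave 2 an unadjusted p under 0.05, Per3 and Nr1d1 (13.7% of all genes). Per2, Per3 and Nr1d1 then did not overlap with controls, as did 38.4% of all genes.

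**Figure D1:**
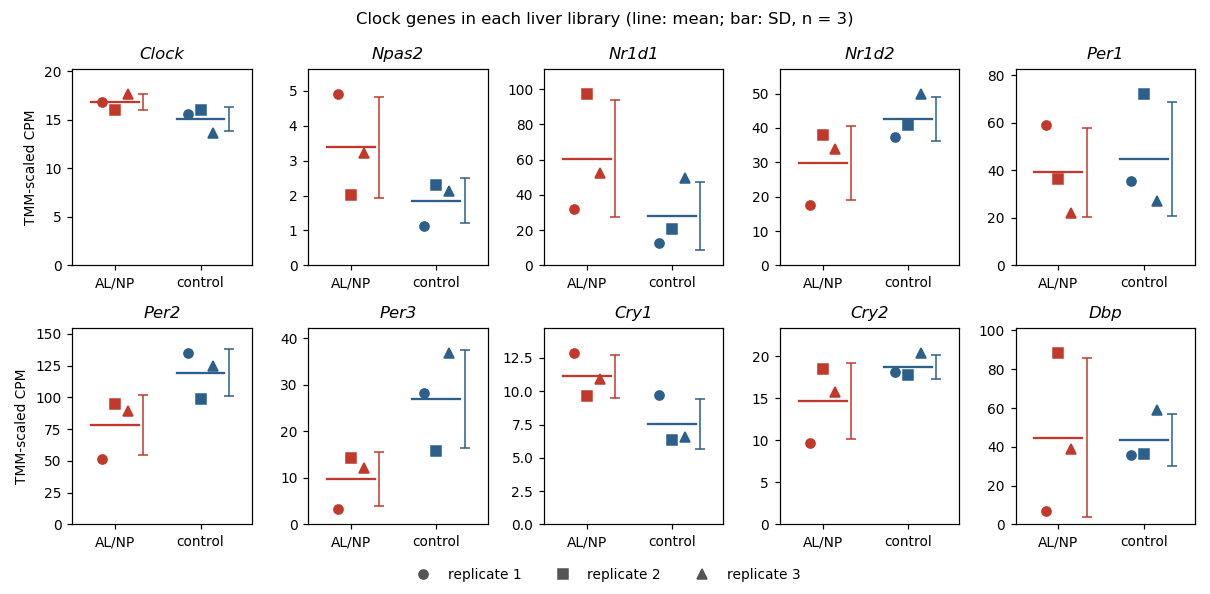
TMM-scaled CPM of the 10 clock genes in each library, AL/NP left and control right, with marker shape for the replicate number, a line for the mean and a bar for the SD (n = 3). Per2 and Per3 are the genes in which the groups do not overlap, and AL/NP replicate 1 (circles) is the lowest point for Dbp, at 6.84 CPM, and for Per3, at 3.26 CPM.

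The 2 activator genes differed in how variable they were. Clock, which encodes a DNA-binding partner of BMAL1, measured 16.8, 16.0 and 17.6 CPM in AL/NP replicates 1 to 3 and 15.6, 16.0 and 13.6 CPM in control replicates 1 to 3. The groups overlapped, and the range over the 6 libraries was the smallest of the members at 1.29-fold, with a log2 fold change of 0.16 (SE 0.139, adjusted p = 0.535, edgeR). Npas2, which can replace Clock, measured 4.90, 2.01 and 3.22 CPM in AL/NP and 1.12, 2.29 and 2.14 CPM in controls. The highest library was AL/NP replicate 1 and the lowest control replicate 1, and AL/NP replicate 2 lay below 2 of the controls. The log2 fold change of Npas2 was 0.86 (SE 0.395, adjusted p = 0.267, edgeR) with all libraries and 0.50 (SE 0.384) without AL/NP replicate 1. Npas2 had between 39 and 141 counts per library, few enough for counting error to add to its spread.

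The 3 Period genes, whose proteins are the negative arm of the loop, did not behave alike. Per3 had the largest fold change of the members in the fit of all 6 libraries, though Nr1d1 had a larger one when AL/NP replicate 1 or control replicate 3 was left out and with library totals as the only scaling (1.38 for Nr1d1, -1.23 for Per3). Per3 measured 3.26, 14.2 and 12.1 CPM in AL/NP replicates 1 to 3 and 28.4, 15.7 and 36.8 CPM in control replicates 1 to 3. Every AL/NP library lay below every control, but AL/NP replicate 2 and control replicate 2 were close. The mean was 9.85 ± 5.80 CPM in AL/NP and 27.0 ± 10.6 CPM in controls (SD, n = 3 each), a log2 fold change of -1.45 (SE 0.516, adjusted p = 0.202, edgeR). DESeq2 gave an adjusted p of 0.0332 for the same gene (log2 fold change -1.45, SE 0.448). Leaving out AL/NP replicate 1 gave -1.03 (SE 0.337, adjusted p = 0.293, edgeR), and leaving out control replicate 3 gave -1.16. The adjusted p of Per3 over all alternatives lay between 0.0332 and 0.502.

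Per2, an essential repressor of the loop, measured 51.4, 94.9 and 89.0 CPM in AL/NP and 135, 99.1 and 124 CPM in controls. Here too the groups did not overlap, with 4.15 CPM between AL/NP replicate 2 and control replicate 2. The mean was 78.4 ± 23.6 CPM in AL/NP and 119 ± 18.3 CPM in controls (SD, n = 3 each), and the log2 fold change was -0.61 (SE 0.243, adjusted p = 0.226, edgeR). It was -0.38 (SE 0.182) without AL/NP replicate 1. Per1, which also responds within a short time to glucocorticoids and to CREB signalling, measured 58.9, 36.2 and 22.1 CPM in AL/NP and 35.4, 72.0 and 27.0 CPM in controls. Its groups overlapped throughout, and the highest library was control replicate 2. Its log2 fold change was -0.20 (SE 0.435, adjusted p = 0.825, edgeR), with -0.62 (SE 0.428) when AL/NP replicate 1 was left out and 0.32 without control replicate 2.

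The Cryptochrome genes, whose proteins bind CLOCK and BMAL1 directly, had fold changes of opposite sign. Cry1 measured 12.9, 9.63 and 10.9 CPM in AL/NP and 9.73, 6.32 and 6.55 CPM in controls. Only control replicate 1 reached the AL/NP range, and by a small margin over AL/NP replicate 2. The mean of Cry1 was 11.1 ± 1.62 CPM in AL/NP and 7.53 ± 1.91 CPM in controls (SD, n = 3 each), a log2 fold change of 0.56 (SE 0.215, adjusted p = 0.213, edgeR), and 0.45 (SE 0.231) without AL/NP replicate 1. Cry2 measured 9.73, 18.5 and 15.7 CPM in AL/NP and 18.1, 17.7 and 20.3 CPM in controls. The controls lay close together, and the low value of AL/NP replicate 1 carried most of the difference: the log2 fold change was -0.35 (SE 0.226, adjusted p = 0.398, edgeR) with it and -0.13 (SE 0.1500) without it. D930015M05Rik, antisense to Cry2, had 6 counts over all libraries.

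The REV-ERB genes, whose products repress Arntl and Npas2, also had fold changes of opposite sign. Nr1d1 (REV-ERB alpha) measured 32.2, 97.1 and 52.3 CPM in AL/NP and 12.9, 20.9 and 49.6 CPM in controls. Control replicates 1 and 2 were the lowest, and control replicate 3 lay among the AL/NP libraries. The mean was 60.5 ± 33.2 CPM in AL/NP and 27.8 ± 19.3 CPM in controls (SD, n = 3 each), a log2 fold change of 1.12 (SE 0.555, adjusted p = 0.297, edgeR). The size of the Nr1d1 difference moved with single libraries: it was 1.43 when AL/NP replicate 1 was left out, 0.61 when AL/NP replicate 2 was, 0.78 when control replicate 1 was and 1.84 (adjusted p = 0.147, edgeR) when control replicate 3 was. Thra overlaps Nr1d1 on the opposite strand over 8.55% of the exon bases of Nr1d1 and had 13.02 counts per 100 of Nr1d1, with a log2 fold change of -0.30. The strand setting of the counting is not known, so reads of the pair may not be separated there.

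Nr1d2 (REV-ERB beta) measured 17.5, 37.9 and 33.8 CPM in AL/NP and 37.3, 40.8 and 49.8 CPM in controls. The value of AL/NP replicate 1 was far below the rest, and AL/NP replicate 2 lay just inside the range of controls. The log2 fold change of Nr1d2 was -0.52 (SE 0.270, adjusted p = 0.307, edgeR) and -0.25 (SE 0.1701) without AL/NP replicate 1. Neither paralog was called, but their fold changes had opposite signs. The ratio of their counts, which needs no scaling between libraries, was therefore taken in each library. There were 1.84, 2.56 and 1.55 Nr1d1 counts per Nr1d2 count in AL/NP and 0.346, 0.511 and 0.996 in controls. How often other pairs of genes separate the groups in this way was not tested. All 3 AL/NP libraries lay above all 3 controls in the ratio of Nr1d1 to Nr1d2. The difference on the log2 scale was 1.79, with an exact two-sided permutation p of 0.1, the smallest that 3 against 3 libraries can give; 7 such ratios were computed after the values had been seen, and the adjusted p was 0.35.

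**Figure D2:**
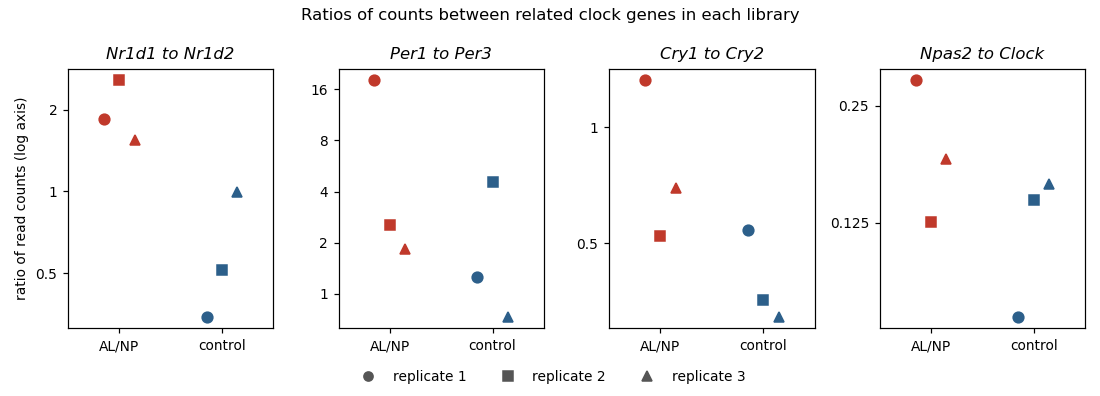
Ratio of read counts between related clock genes in each library (log axis), AL/NP left and control right, with marker shape for the replicate number. The ratio of Nr1d1 to Nr1d2 is the one of these 4 in which the groups do not overlap, and AL/NP replicate 1 stands alone in the ratio of Per1 to Per3 at 18.1.

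Other ratios were highest in AL/NP replicate 1. The ratio of Per1 to Per3 counts was 18.1, 2.55 and 1.83 in AL/NP and 1.25, 4.57 and 0.733 in controls (exact two-sided permutation p = 0.4, adjusted p = 0.56). The ratio of Cry1 to Cry2 was 1.32, 0.5201 and 0.694 in AL/NP and 0.539, 0.357 and 0.322 in controls (exact two-sided permutation p = 0.2, adjusted p = 0.467). The ratio of Per2 to Per3 was 15.7, 6.69 and 7.36 in AL/NP and 4.75, 6.30 and 3.38 in controls, without overlap (exact two-sided permutation p = 0.1, adjusted p = 0.35).

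Dbp, a PAR bZIP transcription factor and the direct output with the strongest daily swing among these genes, measured 6.84, 88.2 and 39.1 CPM in AL/NP and 35.6, 36.4 and 58.9 CPM in controls. The lowest and the highest library of all 6 were both AL/NP libraries, a 12.9-fold range, and the controls lay between them. The group means were nearly equal, 44.7 ± 41.0 CPM in AL/NP and 43.6 ± 13.3 CPM in controls (SD, n = 3 each), with a log2 fold change of 0.04 (SE 0.733, adjusted p = 0.982, edgeR). That value was 0.55 (SE 0.367) without AL/NP replicate 1 and -0.92 (SE 0.659) without AL/NP replicate 2. Sphk2 overlaps Dbp on the opposite strand over 18% of the exon bases of Dbp, with 59.7 counts per 100 of Dbp. Sphk2 measured 21.9, 23.4 and 30.4 CPM in AL/NP replicates 1 to 3 and 23.8, 26.6 and 36.6 CPM in control replicates 1 to 3, so it did not share the range of Dbp.

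**Figure D3:**
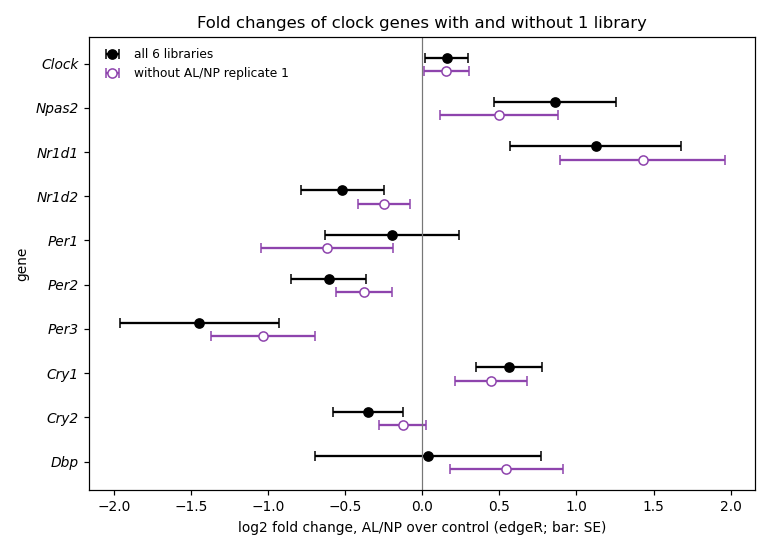
Log2 fold change of AL/NP over control for each clock gene from edgeR, with bars for the SE, from all 6 libraries (filled) and without AL/NP replicate 1 (open). Per3 lies lowest in both, at -1.45 and -1.03, and Dbp sits at 0.04 and 0.55.

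Spread within the groups differed widely among the members and between the groups. The SD of log2 CPM (with 0.1 CPM added) among the AL/NP libraries was 1.87 for Dbp, larger than in 99.9% of tested genes, and 1.14 for Per3, larger than in 99% of them, where the median gene had 0.222. In controls Dbp had 0.411, larger than in 74.7% of tested genes, and Per3 had 0.625, larger than in 90.4%. Among the controls the SD was 0.981 for Nr1d1, larger than in 98.1% of tested genes, and 0.729 for Per1, larger than in 94.1%, where the median gene had 0.248. The SD of Clock was 0.0705 in AL/NP, the lowest of the members there, and 0.124 in controls, larger than in 9.39% and 20.1% of tested genes. That of Cry2 was 0.479 in AL/NP and 0.107 in controls, the lowest of the members there. Nr1d2 had 0.601 in AL/NP and 0.213 in controls, and Per2 had 0.486 in AL/NP and 0.2300 in controls, so both were above the median gene in AL/NP and below it in controls.

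Set in the order of their usual peaks, the members gave a different profile in each library. The profile of AL/NP replicate 1 combined low Dbp, Per3, Nr1d2 and Per2 with high Npas2, Arntl and Cry1. It lay 2.33 below the mean of the 6 libraries on the log2 scale for Dbp and 1.02 above it for Npas2. In the same library Nr1d1, placed next to Dbp in that order, was close to the mean at -0.16. Per1 was 0.61 above the mean there, opposite in sign to Per2 and Per3. AL/NP replicate 2 had the highest Nr1d1 and Dbp, 1.43 and 1.33 above the mean. Control replicate 1 had the lowest Nr1d1, Npas2 and Arntl, 1.48, 1.02 and 1.02 below the mean, beside the highest Per2. Control replicate 2 was marked by Per1, 0.901 above the mean, and control replicate 3 by Per3, 1.34 above it. In every member, the libraries of at least 1 group thus spanned a range on the log2 scale as large as the fold change between the groups. Per3 ran from -2.12 to -0.03 in AL/NP, beside a log2 fold change of -1.45. Nr1d1 ran from -1.48 to 0.46 in controls, beside a log2 fold change of 1.12.

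**Figure D4:**
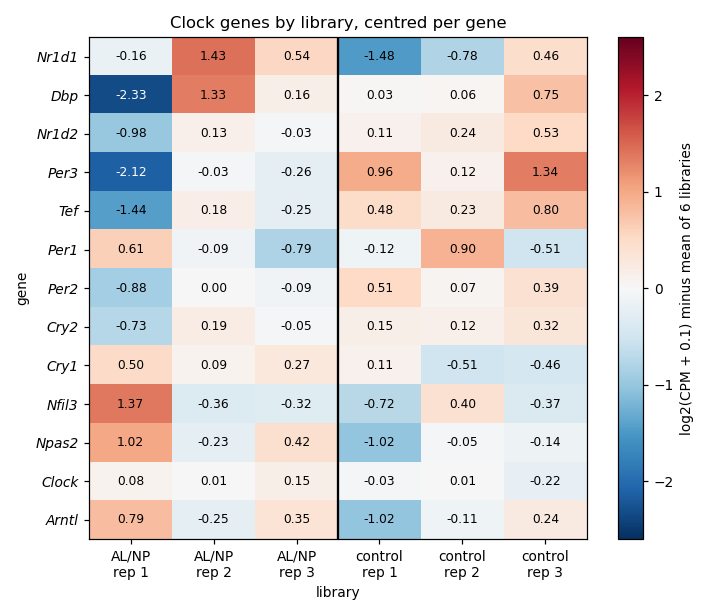
Centred log2(CPM + 0.1) of the 10 clock genes with Tef, Nfil3 and Arntl (rows, in the order of their usual daily peaks) in each library (columns, AL/NP left of the line, control right of it); each cell gives the difference from the mean of the 6 libraries for that gene. AL/NP replicate 1 shows -2.33 for Dbp and -2.12 for Per3 beside 1.02 for Npas2 and 1.37 for Nfil3. Its Nr1d1 is at -0.16 and its Per1 at 0.61.

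Levels of different genes were compared as CPM per kilobase of merged exons, a length that includes all annotated isoforms and so understates genes with long unused exons. In AL/NP the order of these levels was Nr1d1 (19.7 ± 10.8), Dbp (14.9 ± 13.7), Per2 (13.4 ± 4.03), Per1 (6.94 ± 3.30), Nr1d2 (5.50 ± 2.00), Cry1 (3.33 ± 0.486), Cry2 (2.32 ± 0.7100), Clock (1.23 ± 0.0601), Per3 (1.03 ± 0.603) and Npas2 (0.704 ± 0.303) CPM per kilobase (SD, n = 3). In controls it was Per2 (20.4 ± 3.13), Dbp (14.6 ± 4.43), Nr1d1 (9.03 ± 6.28), Per1 (7.95 ± 4.24), Nr1d2 (7.88 ± 1.19), Cry2 (2.96 ± 0.225), Per3 (2.81 ± 1.10), Cry1 (2.26 ± 0.5705), Clock (1.098 ± 0.0925) and Npas2 (0.386 ± 0.133) CPM per kilobase (SD, n = 3). Several neighbours differed by less than the larger of their SDs: in AL/NP these were Nr1d1 and Dbp, Dbp and Per2, Per1 and Nr1d2, Clock and Per3, and Per3 and Npas2. In controls they were Dbp and Nr1d1, Nr1d1 and Per1, Per1 and Nr1d2, Cry2 and Per3, and Per3 and Cry1.

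The other genes of the clock, 25 loop partners, kinases and ubiquitin ligases, were read from the same fit. Of these 24 were tested, edgeR called 0 and DESeq2 called 3 (all lower in AL/NP), beside 0.0816% and 5.07% of all genes. In edgeR 5 had an unadjusted p under 0.05, all with negative fold changes. Over all genes 10.3% had such a p and a negative fold change. The median log2 fold change of the 24 was -0.10, with 6 positive and 18 negative, beside 50% negative among all genes. With library totals as the only scaling that median was 0.044, where the median of all genes was 0.133. Arntl, the partner of Clock and Npas2, measured 11.4, 5.47 and 8.38 CPM in AL/NP and 3.19, 6.07 and 7.73 CPM in controls. Its highest library was AL/NP replicate 1 and its lowest control replicate 1, as for Npas2, and its log2 fold change was 0.57 (SE 0.358, adjusted p = 0.387, edgeR).

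Timeless, Usp2, Tef and Tipin were among the partners with the smallest p-values. Timeless, which in mammals acts mainly at the replication fork, had the smallest p, with a log2 fold change of -1.28 (SE 0.178, adjusted p = 0.0579, edgeR), and its partner Tipin was at -0.44 (adjusted p = 0.268, edgeR). Tef, a PAR bZIP relative of Dbp, measured 24.0, 73.9 and 55.2 CPM in AL/NP and 91.4, 76.5 and 114 CPM in controls. Again AL/NP replicate 1 was lowest, though unlike Dbp the groups did not overlap, with a log2 fold change of -0.88 (SE 0.363, adjusted p = 0.237, edgeR). Usp2, a rhythmic deubiquitinase, was at -1.12 (SE 0.312, adjusted p = 0.144, edgeR).

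Among 22 liver genes known as clock outputs, 21 were tested, edgeR called 0 and DESeq2 called 5 (Nr1i3, Cyp2a5 and Nr0b2 lower in AL/NP, Por and Cdkn1a higher). Over all genes edgeR called 0.0816% and DESeq2 called 5.07% of those it adjusted. Of the 21 tested, 5 had an unadjusted p under 0.05 with a positive fold change and 5 with a negative one, against 9.37% and 10.3% of all genes. Their median log2 fold change was 0.14, but -0.074 without control replicate 1 and -0.049 without AL/NP replicate 3. Nr1i3, which encodes the receptor CAR, measured 16.8, 34.0 and 65.8 CPM in AL/NP and 151, 124 and 111 CPM in controls, without overlap. Its log2 fold change was -1.73 (SE 0.4297, adjusted p = 0.133, edgeR). Cyp2a5, whose reads may be shared with the near-identical Cyp2a4, was at -0.94 (SE 0.271, adjusted p = 0.147, edgeR). Por, which supplies electrons to cytochrome P450 enzymes, was at 0.51 (SE 0.146, adjusted p = 0.147, edgeR). Alas1, the first enzyme of haem synthesis, was at 0.596 (SE 0.199, adjusted p = 0.183, edgeR). Nr0b2, which encodes the repressor SHP, was at -1.03 (SE 0.322, adjusted p = 0.166, edgeR). Upp2, a uridine phosphorylase, measured 1.81, 2.17 and 1.59 CPM in AL/NP and 3.67, 3.56 and 111 CPM in controls, without overlap; the size of its fold change, though not its direction, rested on control replicate 3.

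**Figure D5:**
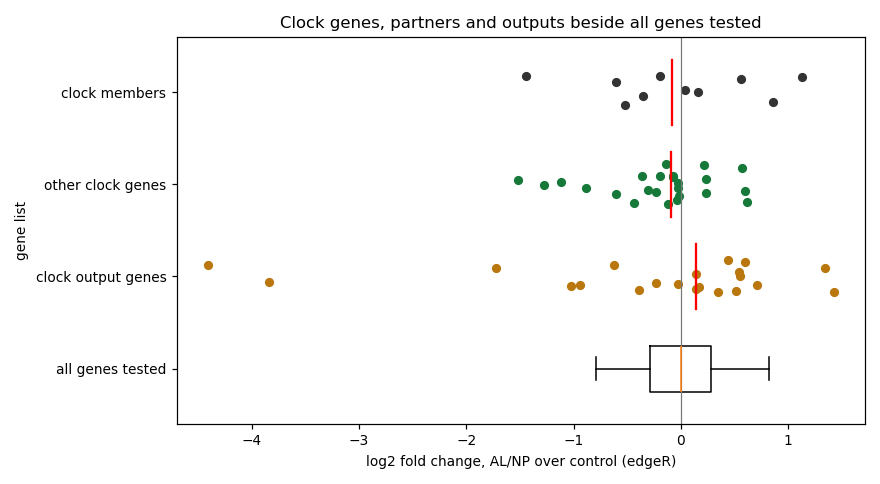
Log2 fold change of AL/NP over control from edgeR for the tested members (10 points), other clock genes (24) and clock output genes (21), with a red line at each median, above a box of all 15939 tested genes (quartiles and median, whiskers at the 5th and 95th percentiles, -0.796 and 0.821). The medians of the lists, -0.08, -0.10 and 0.14, lie within the quartiles of all genes, -0.284 and 0.2803.

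The genes whose centred log2 profile over the 6 libraries came nearest to that of Per3, the member with the smallest p, were Hsd3b1, Ism2 and Abca8a, at root mean square differences of 0.262, 0.269 and 0.277, where Per3 itself spanned 3.45. Abca8a, a membrane transporter, measured 5.07, 12.5 and 13.5 CPM in AL/NP and 24.5, 18.1 and 37.8 CPM in controls, while Hsd3b1 and Ism2 reached at most 2.61 and 0.776 CPM in any library. Among the genes nearest to Dbp were Prss8 and Slc35f2, at 0.455 and 0.511, where Dbp spanned 3.67. Slc35f2 reached at most 0.523 CPM in any library. In AL/NP replicate 1 it was at 0.0347 CPM, below the level of 3 counts (0.104 CPM). Prss8, a membrane-bound serine protease, measured 1.70, 12.1 and 4.81 CPM in AL/NP and 7.12, 10.9 and 12.8 CPM in controls. With 6 libraries such likeness describes these samples only.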

How the data were processed

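Messenger RNA was sequenced from 6 liver libraries, 3 AL/NP and 3 fibrotic control, with polyadenylated RNA selection and a strand-marking kit, per the labels' protocols. The deposited table holds raw read counts per Ensembl gene, made by the authors; the submitters' processing notes name GRCm38, STAR 2.6.1a, featureCounts and DESeq2 1.26.0. Strand setting, annotation release and filters are not given in the sources used here. Coordinates and exon lengths came from GENCODE M21 (GRCm38), which held 40340 of 41388 identifiers.

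Groups were compared with edgeR 4.0.16 in R 4.3.3 (quasi-likelihood test, robust fit, TMM, filterByExpr with a minimum count of 10), with Benjamini-Hochberg adjustment over all 15939 genes and a threshold of 0.05. Standard errors were taken from the fold change and its F statistic (their quotient, with F under a square root). Differences are given as AL/NP over control on the log2 scale. The members, lists and alternatives were chosen with earlier results of these data known. All 10 members were named; of each further list, the genes with the smallest p, some of which are not reported here. Alternatives were DESeq2 size factors, library totals as the only scaling, 2 filters, a replicate block, each library left out, no robust estimation, limma-voom 3.58.1, DESeq2 1.42.0, and mitochondrial genes left out. The fit was also run on simulated counts, drawn with dispersions that edgeR estimated from these libraries. Such a run cannot check how well the fit suits these libraries, and no result here rests on it. No pair of libraries was a duplicate (chi-square per degree of freedom of at least 30.6).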

Additional observations from a re-analysis of the deposited data

How the results depend on the processing

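With each of the 15 alternatives, 0 of 10 members were called, apart from DESeq2, which called 1 (Per3, adjusted p = 0.0332). The fold changes of Clock, Npas2, Per2, Per3, Cry1, Cry2, Nr1d1 and Nr1d2 kept their sign in all 15. That of Dbp was -0.54 with the replicate block and -0.55 with limma-voom, and ranged from -0.92 to 0.55 when 1 library was left out; leaving out either control replicate 1 or control replicate 2 gave -0.09. That of Per1 ranged from -0.62 to 0.32 when 1 library was left out, and was positive when AL/NP replicate 3 (0.08) or control replicate 2 was left out. The cause was not tested. The 13 genes called over the whole table became 23 with the replicate block, 747 with no filter beyond 1 count and 844 with DESeq2; they became 0 with library totals as the only scaling (2254 at an unadjusted p under 0.05), with at least 50 counts in 3 libraries (2786) and without robust estimation (3133), and between 0 and 4 without 1 library. Library totals as the only scaling moved the median of all genes by 0.133, and those of other clock genes and clock outputs to 0.044 and 0.29. Without 1 library these medians ranged from -0.23 to -0.10 (-0.097) and from -0.074 to 0.24. Over all tested genes, same-numbered libraries did not deviate together (correlations of -0.0533, 0.0400 and 0.0774), so the numbers were not taken to pair them. Whether same-numbered libraries share a clock phase was not tested. The replicate block changed no call of a member, but 5 members then had an unadjusted p under 0.05 by edgeR, against 3 without it. Over all genes these counts were 3129 and 3128. With 3 libraries a group, the SE of log2 fold changes ranged among the members from 0.139 for Clock to 0.733 for Dbp.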

Other observations

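Signals known to act on clock genes gave mixed values. Of 9 temperature-linked genes, 2 were called by edgeR, Hspa1b (log2 fold change 2.43, SE 0.232, adjusted p = 0.0480) and Hspa1a (2.27, SE 0.3001, adjusted p = 0.0493), both inducible chaperones with near-identical sequences. Neither call held when libraries were scaled by their totals alone, with at least 50 counts in 3 libraries, without robust estimation, and when AL/NP replicate 2, AL/NP replicate 3, control replicate 2 or control replicate 3 was left out, since edgeR then called 0 of all genes. DESeq2 called Hspa1b, Hspa1a, Dnajb1, Hspa8 and Hsph1, all 5 higher in AL/NP. Over all genes edgeR called 0.0816% and DESeq2 called 5.07% of those it adjusted. Hsph1, a further chaperone, was at 0.91 (adjusted p = 0.124, edgeR), and the median of the list was 0.66. Cirbp, a cold-induced RNA-binding protein gene chosen after its values were seen, measured 8.996, 8.69 and 7.13 CPM in AL/NP and 9.44, 10.49 and 9.75 CPM in controls. Its groups did not overlap, as in 29.5% of all genes, and its log2 fold change was -0.26 (SE 0.164, adjusted p = 0.391, edgeR). Rbm3, on the same list, had a positive log2 fold change of 0.45 (SE 0.266, adjusted p = 0.362, edgeR), and its groups overlapped. Among 9 glucocorticoid targets edgeR called 0 and DESeq2 called 1 (Fkbp5). At an unadjusted p under 0.05 by edgeR there were 3, against 19.6% of all genes. Fkbp5, a receptor chaperone, measured 64.4, 49.3 and 53.0 CPM in AL/NP and 37.1, 40.2 and 27.5 CPM in controls (log2 fold change 0.67, SE 0.185, adjusted p = 0.144, edgeR). Mt1, a metallothionein, was at 1.99 (adjusted p = 0.161) and Tat, tyrosine aminotransferase, at -0.71 (adjusted p = 0.253, edgeR for both), and the median of the list was -0.01.

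Of 7 fasting genes edgeR called 0, with 0 at an unadjusted p under 0.05 (19.6% of all genes), and DESeq2 also called 0. Irs2, Ppargc1a and Pck1 were at -1.18, -0.66 and -1.02 on the log2 scale, each with overlap between the groups. Fold changes were positive in 3 genes of the list (Angptl4 at 0.93, Pdk4 at 0.47 and Igfbp1 at 0.29) and negative in 4, with a median of -0.66. Control replicate 2, the library with the highest Per1, was also the highest in Pck1 (looked up after the Per1 values were seen). Pck1 measured 820, 537 and 306 CPM in AL/NP and 1057, 1779 and 547 CPM in controls. G6pc1 and Irs2 were highest in that library too, but Angptl4, Pdk4 and Igfbp1 in AL/NP replicate 1 and Ppargc1a in control replicate 3. Over all tested genes control replicate 2 was highest in 11%. Of 8 CREB and immediate early genes edgeR and DESeq2 each called 0. At an unadjusted p under 0.05 by edgeR there were 5, 4 with a positive and 1 with a negative fold change, against 19.6% of all genes. Fosb was at 1.33 (adjusted p = 0.156), Egr1 at -0.98 (adjusted p = 0.177) and Crem at 0.59 (adjusted p = 0.194, edgeR for all 3). The part of these signals in the clock values was not tested.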
